A study of Mus musculus with 10 samples.

Results

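Potassium channel genes of the mouse cerebellum were compared between Bmal1 knockout and wild-type animals in total RNA, in ribosome footprints (messenger RNA fragments protected by ribosomes) and in translational efficiency, the ratio of footprints to total RNA. They were taken as all genes whose symbol starts with Kcn and whose mean read count reaches 20. Kcnj13 and Kcne2, which mark the choroid plexus, were left out. Of the 94 Kcn genes among 22046 genes in the table, 68 in 15 subfamilies met this rule, 24 lay below the minimum count and 2 were the choroid plexus genes. The 24 were Kcna5, Kcna7, Kcna10, Kcne1, Kcne3, Kcne4, Kcng1, Kcnh4, Kcnj1, Kcnj5, Kcnj14, Kcnj15, Kcnk6, Kcnk7, Kcnk15, Kcnk16, Kcnk18, Kcnmb1, Kcnmb3, Kcnn4, Kcnq1, Kcnrg, Kcnu1 and Kcnv1, and were not tested. Just inside the minimum were Kcnh6 with a mean read count of 20.5 and Kcnv2 with 20.8, and just outside it Kcnv1 with 20.0 (19.98 before rounding) and Kcnu1 with 16.9. Among the 68 the median mean read count was 981, and Kcna2 had the highest, 15721.

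The study asked what loss of Bmal1, a transcription factor of the circadian clock whose gene symbol is Arntl, does to expression and translation in the cerebellum. Knockout animals were Bmal1-/-, so that the gene is lost in the whole body, and wild-type animals were their Bmal1+/+ littermates from heterozygous parents. Both had a C57BL/6 background and were housed under alternating periods of 12 h light and 12 h dark, and the labels give no sex, age or time of day of sampling. Cerebella were frozen and lysed with cycloheximide, which holds ribosomes in place, and RNase I digestion of a portion left footprints of 28 to 34 nt, while the remainder gave fragmented total RNA, both depleted of ribosomal RNA. The animals with both kinds of library were knockouts 1 and 3 and wild types 2 and 3, so that each comparison is of 2 against 2 animals. The total RNA libraries labelled knockout 2 and wild type 1 were not analysed here. P-values rest on the spread between these few animals, moderated by a variance trend across all genes tested. They therefore also depend on that trend, and counts without it are given at the end.

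Potassium channels let potassium leave the cell and thereby set the resting potential, end the action potential and time repetitive firing. Voltage-gated channels (Kv, with EAG, ERG and ELK) open on depolarisation, inward rectifiers (Kir) and two-pore channels (K2P) carry resting currents, and calcium- or sodium-activated channels (BK, SK, Slo2) follow activity. Auxiliary subunits such as Kv beta and KChIP proteins bind the pore-forming subunits and alter their gating. In the cerebellum Kv1 channels sit at the axon terminals of basket cells, Kv3 channels allow fast firing of Purkinje and granule neurons, and Kir4.1 clears potassium in glia.

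Whole reads could be recovered from the deposited values for 13880 of the 22046 genes, those above 0 in every library. In units of 1000000, recovered reads of total RNA were 38.9 and 43.2 in the knockout, against 25.6 and 27.8 in the wild type. Those of footprints were 41.0 and 30.1 in the knockout, against 38.1 and 27.7 in the wild type. RPKM are the deposited values, in name reads per kilobase of gene and per 1000000 mapped reads. All other values per 1000000 reads, and shares of reads, are relative to the recovered reads. Arntl itself had 267 and 272 RPKM of total RNA in the knockout, against 179 and 179 RPKM in the wild type, and 124 and 107 RPKM of footprints in the knockout, against 258 and 295 RPKM in the wild type. Its total RNA was thus not lower in the knockout while its footprints were, and a value per gene does not show which exons the reads came from. Markers of several cell types moved with genotype in total RNA. Of 14 granule neuron markers 7 were higher in the knockout, and their summed CPM (reads per 1000000) were 9225 and 9162 in the knockout, against 7425 and 8042 in the wild type. Purkinje cell markers, with 9383 and 10353 summed CPM in the knockout, against 10369 and 11544 in the wild type, had 0 of 12 called. Both sets mark the cerebellum and were abundant in every library. Of 10 interneuron markers 2 were higher and 4 lower, and of 10 markers of astrocytes and Bergmann glia 1 was higher and 2 were lower. Oligodendrocyte markers were lower for 7 of 14 and higher for 1, microglia markers lower for 7 of 12, and endothelial and mural markers higher for 1 and lower for 1 of 12. Of 11 choroid plexus markers tested 10 were higher, with 2797 and 3234 summed CPM in the knockout, against 1480.0 and 285 in the wild type, where animal 3 stood apart. Of 5 brainstem and midbrain markers tested 1 was higher and 1 lower. The part of these shifts in the channel results was not tested, and in bulk tissue fewer cells of a type and less RNA per cell cannot be told apart.

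BMAL1 binds E-box motifs, and the E-box CACGTG, which reads the same on both strands, was therefore looked up in RefSeq promoter windows of build GRCm38, from 250 bases before to 50 bases after each annotated start. Of the 68 channel genes 50 had a window, and 3 of these held the motif, against 8.09% of all 27025 genes with a window. They were Kcnab1 (in windows of 2 annotated starts), Kcnj2 and Kcnk5. Their log2 fold changes of knockout over wild type in total RNA were -0.15, -0.63 and 0.27, and none of the 3 was called by limma. Of the 10 genes called in total RNA 8 had a window and 0 of them held the motif. The windows of the leading called genes, Kcna2 and Kcnk1, are shown beside those of Kcnj2 and Kcnk5, with the motif in capitals. A match is a description of these letters and not of binding.
Kcna2, chr3:107101317-107101616, plus strand: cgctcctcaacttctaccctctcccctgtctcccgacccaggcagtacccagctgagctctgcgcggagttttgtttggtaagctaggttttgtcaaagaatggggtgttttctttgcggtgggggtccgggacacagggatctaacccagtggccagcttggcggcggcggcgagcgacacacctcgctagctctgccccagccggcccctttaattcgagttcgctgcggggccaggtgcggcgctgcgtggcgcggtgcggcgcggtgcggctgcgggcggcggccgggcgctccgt
Kcnk1, chr8:125994852-125995151, plus strand: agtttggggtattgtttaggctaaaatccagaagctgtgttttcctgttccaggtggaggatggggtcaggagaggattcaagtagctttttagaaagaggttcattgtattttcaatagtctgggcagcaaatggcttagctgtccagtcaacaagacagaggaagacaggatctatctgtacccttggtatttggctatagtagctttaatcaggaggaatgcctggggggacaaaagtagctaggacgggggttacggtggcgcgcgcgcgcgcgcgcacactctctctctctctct
Kcnj2, chr11:111065914-111066213, plus strand: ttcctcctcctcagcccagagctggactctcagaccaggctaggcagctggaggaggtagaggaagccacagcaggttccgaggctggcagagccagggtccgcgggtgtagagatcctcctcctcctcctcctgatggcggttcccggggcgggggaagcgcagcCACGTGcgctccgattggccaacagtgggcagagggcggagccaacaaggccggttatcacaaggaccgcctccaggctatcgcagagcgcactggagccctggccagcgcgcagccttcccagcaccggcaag
Kcnk5, chr14:20181733-20182032, minus strand: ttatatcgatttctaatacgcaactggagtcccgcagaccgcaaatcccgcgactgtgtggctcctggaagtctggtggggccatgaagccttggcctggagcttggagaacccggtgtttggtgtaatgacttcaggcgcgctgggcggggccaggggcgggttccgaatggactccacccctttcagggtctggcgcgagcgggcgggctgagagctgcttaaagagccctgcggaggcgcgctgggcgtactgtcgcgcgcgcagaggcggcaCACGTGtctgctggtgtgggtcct
In Kcnj2 the motif begins 84 bases before the start, and in Kcnk5 it begins 26 bases after it.

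Levels were first ordered per length, as total RNA reads per kilobase of annotated exon and per 1000000 reads. The deposited RPKM were used only within a gene, since the length they imply had a Spearman rho of -0.08 with annotated exon length over the 68 genes. By this measure the most abundant channel gene in both genotypes was Kcnk1, which encodes the weakly conducting K2P channel TWIK1. It had 154 and 161 in the knockout, against 111 and 112 in the wild type. The order depends on the merged length of all annotated exons, 2235 bases in Kcnk1 and 11906 in Kcna2. Before division by length Kcna2 had more total RNA reads than Kcnk1 in every library. Kcna2, which encodes the axonal low-threshold channel Kv1.2, had 105 and 99.8 in the knockout, against 60.9 and 59.5 in the wild type. In the wild type Kcnd2, which encodes the A-type channel Kv4.2 of granule neurons, and Kcna1, which encodes Kv1.1, stood above Kcna2 in the order. Kcnd2 had 69.5 and 71.0 in the knockout, against 74.4 and 73.4 in the wild type. Kcna1 had 73.3 and 68.3 in the knockout, against 65.6 and 58.9 in the wild type, so that its order relative to Kcna2 was not separated by the spread between wild-type animals. Of the 10 most abundant channel genes 9 were the same in both genotypes. All 68 together took 0.796% and 0.752% of total RNA reads in the knockout, against 0.678% and 0.669% in the wild type, and 0.377% and 0.407% of footprint reads in the knockout, against 0.375% and 0.397% in the wild type.

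**Figure D1:**
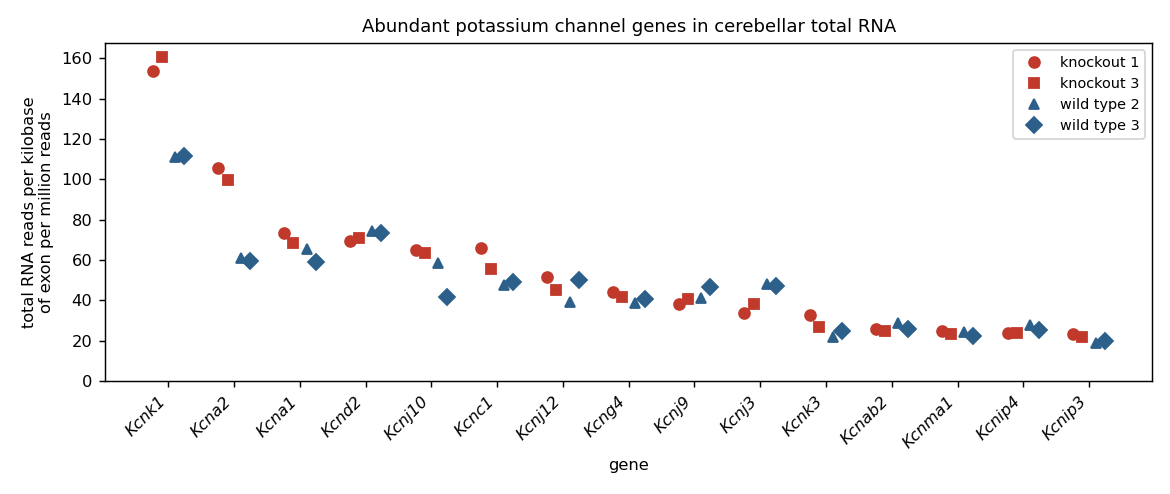
Total RNA reads per kilobase of exon per 1000000 reads (y axis, linear) of 15 of the most abundant potassium channel genes, ordered by the knockout mean, with 1 point per library. Kcnk1 leads in both genotypes, and the knockout points of Kcnk1 and Kcna2 lie above both wild-type points.

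In total RNA 10 of the 68 channel genes differed between genotypes, 7 higher and 3 lower in the knockout. Among the higher were Kcna2, the Kv3 genes Kcnc1 and Kcnc4, the ELK channel gene Kcnh3, the K2P gene Kcnk1 and the glial Kir gene Kcnj10. Lower were the G protein-gated Kir gene Kcnj3, the silent subunit gene Kcnf1 and the ERG gene Kcnh7. A gene was called at a Benjamini-Hochberg adjusted p under 0.05 in limma on log2 RPKM, fitted across all 13331 genes that reach a mean count of 20. The called channel genes were 14.7% of the set, against 10.3% of all genes (5.78% higher and 4.49% lower), and the median log2 fold change was 0.00 over the channel genes and -0.02 over all genes. At an unadjusted p under 0.05 there were 26 channel genes (38.2%), against 24.9% of all genes. Both knockout values lay above both wild-type values for 19 channel genes (27.9%), against 24.6% of all genes, and below them for 19 others, against 30.1% of all genes. As a set the channel genes had no common direction in total RNA.

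Kcna2, whose Kv1.2 subunit forms channels with Kv1.1 at basket cell terminals and along axons, had the smallest adjusted p of the set. Its total RNA was 10466 and 9888 RPKM in the knockout, against 5903 and 5861 RPKM in the wild type. The 2 knockout libraries lay far above both wild-type libraries, which were nearly equal. The log2 fold change was 0.79 (SE 0.08, limma adjusted p = 1.07e-05), and it remained called in all 15 alternative fits of total RNA, with log2 fold changes of 0.42 after quantile normalization to 0.83 without knockout 3. The gene lies on chromosome 3 at 107101146 to 107115005 (mm10). The other Kv1 genes were not called. Kcna1 had a log2 fold change of 0.21 (limma adjusted p = 0.137). Kcna6, which encodes Kv1.6, had 189 and 196 RPKM in the knockout, against 179 and 211 RPKM in the wild type, and these values overlapped. Kcna4, which encodes the inactivating Kv1.4, had 16.0 and 22.0 RPKM in the knockout, against 24.6 and 23.4 RPKM in the wild type (log2 fold change -0.36, limma adjusted p = 0.239).

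Of the Kv3 genes Kcnc1 and Kcnc4 were called, both higher in the knockout. Kcnc4, which encodes the inactivating Kv3.4, had 201 and 186 RPKM in the knockout, against 136 and 137 RPKM in the wild type (log2 fold change 0.50, SE 0.11, limma adjusted p = 0.00677). Kcnc1, which encodes the granule neuron channel Kv3.1, had 238 and 199.8 RPKM in the knockout, against 167 and 176 RPKM in the wild type (log2 fold change 0.35, SE 0.09, limma adjusted p = 0.0238). In both the groups did not overlap. For both genes knockout 1 was the highest library, and the wild-type values were close to each other. Kcnc2, which encodes Kv3.2 of interneurons and deep nuclei, had 14.7 and 14.1 RPKM in the knockout, against 14.1 and 14.7 RPKM in the wild type. Of the 14 granule neuron markers, which stand for a cell type that uses Kv3.1, 7 were also called higher in the knockout. A positive log2 fold change was seen for 10 of the 14, while Gabra6 had -0.04 and Zic1 -0.10. The relation of these markers to the Kv3 genes was not tested. Without knockout 1 both calls ended, at limma adjusted p = 0.113 for Kcnc4 and 0.431 for Kcnc1, where the log2 fold changes were 0.45 and 0.22. The Kcnc1 call also ended without wild type 2, at a log2 fold change of 0.31 (limma adjusted p = 0.0559).

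Kcnk1, on chromosome 8 at 125995170 to 126030685 (mm10), had 122 and 128 RPKM in the knockout, against 86.6 and 88.2 RPKM in the wild type. Both groups were tight and apart, and the log2 fold change was 0.52 (SE 0.08, limma adjusted p = 0.00054). With any 1 animal left out the log2 fold change lay between 0.49 and 0.55. Without a variance trend the Kcnk1 call ended, at limma adjusted p = 0.0939. Of the 9 K2P genes Kcnk1 was the 1 called. Kcnk3, which encodes the acid-sensitive leak channel TASK1, had 109 and 88.7 RPKM in the knockout, against 71.4 and 82.2 RPKM in the wild type (log2 fold change 0.36, limma adjusted p = 0.0759). Kcnk9, which encodes TASK3, the partner of TASK1 in the standing outward current of granule neurons, had 171 and 148 RPKM in the knockout, against 137 and 151 RPKM in the wild type, and the groups overlapped.

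**Figure D2:**
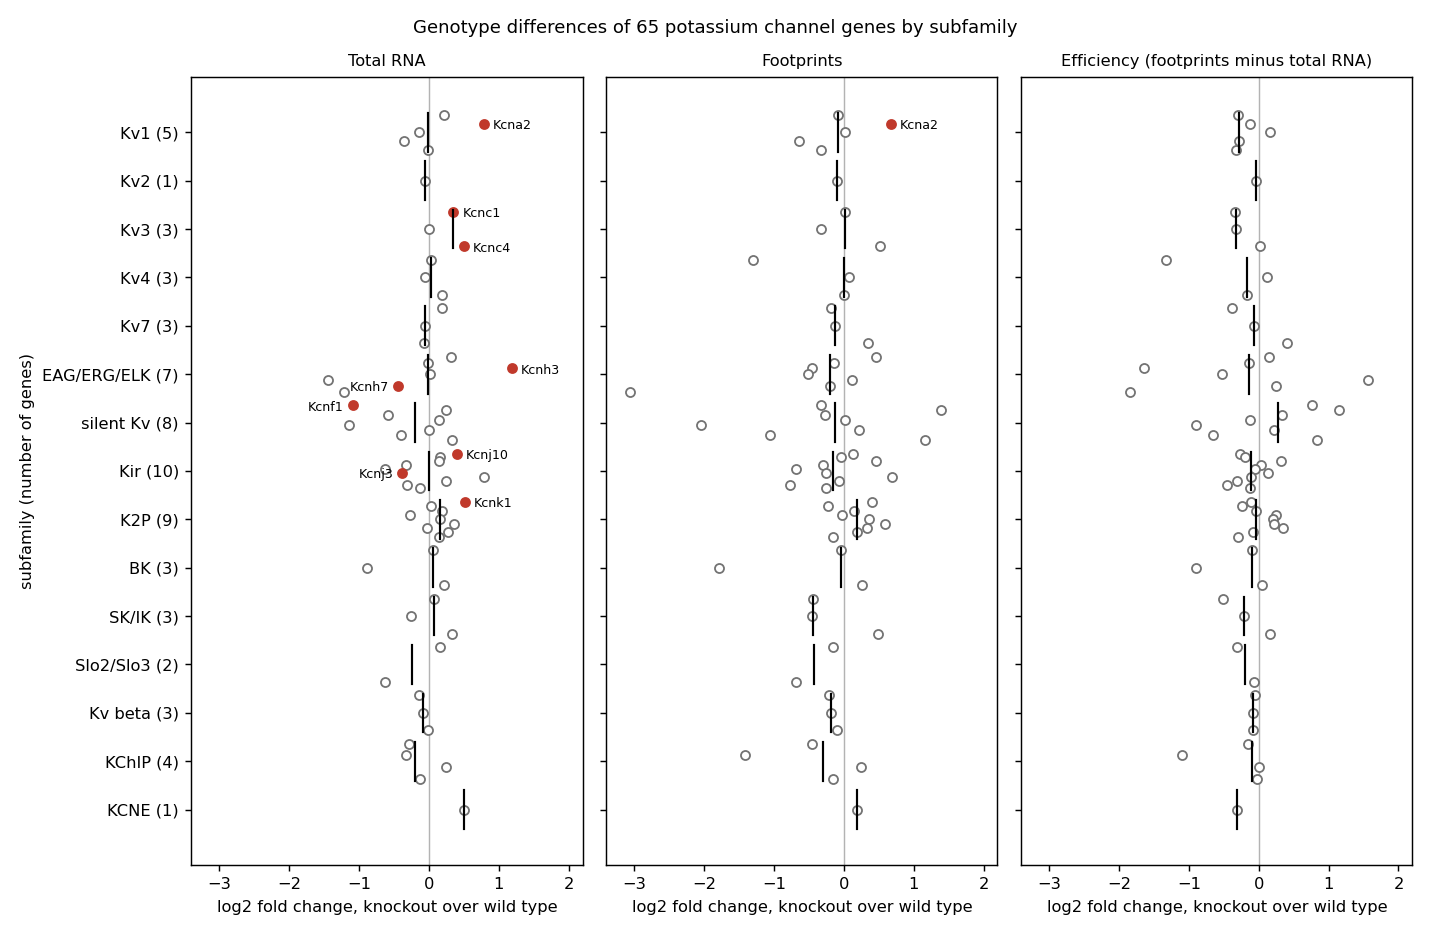
Log2 fold change of knockout over wild type (x axis) for 65 of the 68 potassium channel genes by subfamily, in total RNA, in footprints and in the difference between them. Filled and named points passed the limma adjusted p threshold of 0.05, open points did not, and black bars are subfamily medians of the genes drawn. Most subfamily medians in total RNA lie near 0, and the named points lie on both sides of it.

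Among 10 Kir genes 1 was higher and 1 lower. Kcnj10, which encodes Kir4.1 of astrocytes and Bergmann glia, had 199 and 194 RPKM in the knockout, against 175 and 127 RPKM in the wild type (log2 fold change 0.40, SE 0.12, limma adjusted p = 0.0389). The groups did not overlap, but wild type 3 lay well below wild type 2, and without wild type 3 the log2 fold change was 0.17 (limma adjusted p = 0.227) and without wild type 2 it was 0.63 (limma adjusted p = 5.53e-05). The call also ended after median centring and after quantile normalization. Summed CPM of the 10 markers of astrocytes and Bergmann glia were 5436 and 5357 in the knockout, against 5726 and 5392 in the wild type. Of these 10 markers 4 were lowest in wild type 3 of all libraries and 5 were highest in it, and their part in the Kcnj10 values was not tested. Kcnj16, which encodes Kir5.1, the usual partner of Kir4.1, had 449.8 and 441 RPKM in the knockout, against 599 and 525 RPKM in the wild type (log2 fold change -0.33, limma adjusted p = 0.0668). Kcnj3, which encodes the GIRK1 subunit, had 1609.8 and 1804 RPKM in the knockout, against 2215 and 2225 RPKM in the wild type (log2 fold change -0.38, SE 0.09, limma adjusted p = 0.0114). Its groups did not overlap, and without knockout 1 the call ended at limma adjusted p = 0.228. The genes of its partner subunits were not called. The GIRK2 gene Kcnj6 had 592 and 557 RPKM in the knockout, against 496 and 471 RPKM in the wild type (log2 fold change 0.25, limma adjusted p = 0.137). The GIRK3 gene Kcnj9 had 66.0 and 69.9 RPKM in the knockout, against 69.3 and 80.0 RPKM in the wild type, with overlapping groups. Kcnj2, which encodes the strong rectifier Kir2.1, had 0.888 and 1.02 RPKM in the knockout, against 1.59 and 1.36 RPKM in the wild type (log2 fold change -0.63, limma adjusted p = 0.0647). Kcnj4, which encodes Kir2.3, had 8.65 and 7.34 RPKM in the knockout, against 3.84 and 5.51 RPKM in the wild type (log2 fold change 0.79 on few reads, limma adjusted p = 0.196).

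Of the 7 EAG, ERG and ELK genes Kcnh3 and Kcnh7 were called. Kcnh3, which encodes an ELK channel, had 16.4 and 17.3 RPKM in the knockout, against 6.55 and 8.34 RPKM in the wild type. These values rest on 227 and 266 reads in the knockout, against 61 and 83 reads in the wild type, and the groups did not overlap. The log2 fold change was 1.19 (SE 0.33, limma adjusted p = 0.0343). Kcnh7, which encodes ERG3, had 10.5 and 10.9 RPKM in the knockout, against 15.7 and 13.4 RPKM in the wild type (log2 fold change -0.44, SE 0.12, limma adjusted p = 0.0341). Without knockout 1, knockout 3 or wild type 2 both calls ended, with limma adjusted p between 0.0996 and 0.268. Kcnh1, which encodes EAG1, had 26.6 and 29.7 RPKM in the knockout, against 21.6 and 23.4 RPKM in the wild type (log2 fold change 0.32, limma adjusted p = 0.0525). Kcnh6, which encodes ERG2, had the largest log2 fold change of the family, -1.45, on 8 and 25 reads in the knockout, against 27 and 24 reads in the wild type (limma adjusted p = 0.137).

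Silent Kv subunits form no channel alone and modify Kv2 channels. Of 8 such genes Kcnf1 was called, with 0.420 and 0.387 RPKM in the knockout, against 0.901 and 0.822 RPKM in the wild type. The groups were apart, on 81 and 83 reads in the knockout, against 117 and 114 reads in the wild type, whose libraries were shallower. The log2 fold change was -1.09 (SE 0.26, limma adjusted p = 0.0139), and without knockout 1 or knockout 3 the limma adjusted p was 0.0663 or 0.082. With a pseudocount of 1, which is above its RPKM in every library, the log2 fold change was -0.41 (limma adjusted p = 0.116), and with a variance trend along RPKM the limma adjusted p was 0.0576. Kcns1 had 9.43 and 14.9 RPKM in the knockout, against 24.7 and 27.8 RPKM in the wild type (log2 fold change -1.14, limma adjusted p = 0.108). Kcng4, the most abundant silent subunit gene, had 38.9 and 36.5 RPKM in the knockout, against 33.1 and 35.5 RPKM in the wild type (log2 fold change 0.14, limma adjusted p = 0.374).

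In the other subfamilies 0 of 25 genes were called in total RNA by limma. Kcnd2 had 3829 and 3906 RPKM in the knockout, against 4003 and 4009 RPKM in the wild type (log2 fold change -0.05). Kcnd3, which encodes Kv4.3, had 977 and 900.5 RPKM in the knockout, against 854 and 800.2 RPKM in the wild type (log2 fold change 0.18, limma adjusted p = 0.233). Neither of these Kv4 genes passed the threshold. The Kv7 genes, which carry the muscarine-sensitive M current, had log2 fold changes between -0.07 and 0.19. Kcnma1, the pore gene of BK channels that shape Purkinje cell firing, had 991 and 941 RPKM in the knockout, against 959 and 894 RPKM in the wild type, and the groups overlapped. Its auxiliary subunit gene Kcnmb2 had 3.67 and 3.70 RPKM in the knockout, against 7.55 and 6.17 RPKM in the wild type (log2 fold change -0.89, limma adjusted p = 0.135). Kcnn2, which encodes the SK2 channel of Purkinje cells, had 108 and 111 RPKM in the knockout, against 135 and 126 RPKM in the wild type (log2 fold change -0.25, limma adjusted p = 0.129). Kcnn3, which encodes SK3, had 27.6 and 31.0 RPKM in the knockout, against 23.6 and 22.9 RPKM in the wild type (log2 fold change 0.33, limma adjusted p = 0.206). The calcium-activated genes thus differed in sign, and 0 of 6 were called. The sodium-activated channel genes Kcnt1 and Kcnt2 had log2 fold changes of 0.15 and -0.63. The 3 Kv beta genes had log2 fold changes between -0.15 and -0.01, and the 4 KChIP genes between -0.33 and 0.24. Kcnab1, which encodes Kv beta 1, had 494 and 526 RPKM in the knockout, against 563 and 566 RPKM in the wild type (log2 fold change -0.15, limma adjusted p = 0.297). Kcnip4, the KChIP gene with the most reads, had 468 and 464 RPKM in the knockout, against 528 and 489 RPKM in the wild type (log2 fold change -0.12, limma adjusted p = 0.419). Kcne1l, a KCNE-like gene, is called a pseudogene in the deposited gene description. It had 8.71 and 11.2 RPKM in the knockout, against 6.46 and 7.54 RPKM in the wild type (log2 fold change 0.50, limma adjusted p = 0.104).

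**Figure D3:**
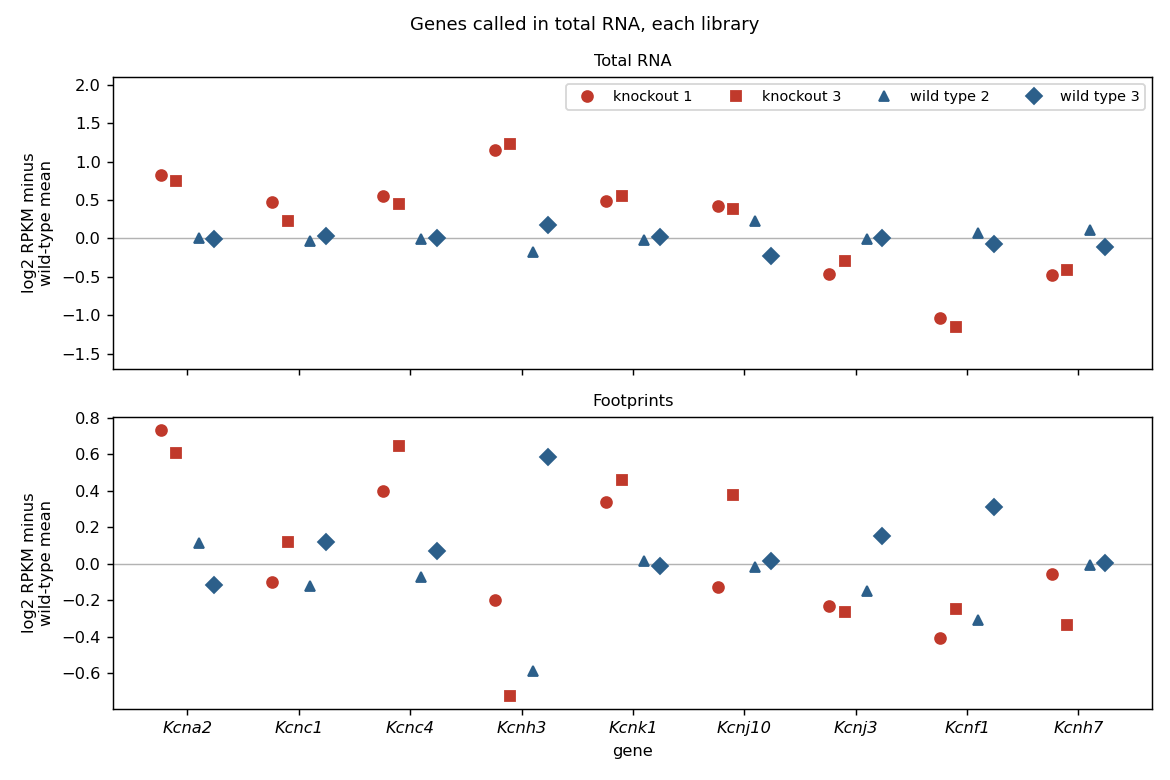
Log2 RPKM of 9 of the 10 genes called in total RNA, each minus the wild-type mean of that gene (y axis), with 1 point per library, in total RNA and in footprints. In total RNA the knockout and wild-type points of these 9 genes are apart, and in footprints those of Kcna2, Kcnc4 and Kcnk1 lie apart with the knockout higher, and those of Kcnj3 and Kcnh7 apart with the knockout lower.

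When the reads recovered from the table were fitted with limma-voom, 14 channel genes were called, 9 higher and 5 lower, against 11.8% of all genes. All 10 genes called by limma were among them. Kcnh1 and Kcnk3 were added as higher. Kcnj2 (log2 fold change -0.61, limma-voom adjusted p = 0.0476) and Kcns1 (log2 fold change -1.12, limma-voom adjusted p = 0.0399) were added as lower.

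Base composition moved with these results. Across 13318 genes with a coding transcript, the knockout minus wild-type difference in total RNA had a Spearman rho of 0.32 with the GC content of the transcript, and across the 68 channel genes one of 0.36. Differences between animals of 1 genotype also followed GC content, with a rho over all genes of 0.18 for knockout 1 minus knockout 3 and -0.29 for wild type 2 minus wild type 3. GC content was 59.6% for Kcnc4, 57.4% for Kcnc1 and 61.2% for Kcnh3, against a median of 50.2% over all genes. Of the 3 genes lower in the knockout, Kcnh7 with 39.6% and Kcnj3 with 43.9% lay below that median and Kcnf1 with 54.2% above it. Kcna2 with 45.8% and Kcnj10 with 49.6% lay below the median and Kcnk1 with 51.8% above it, and these 3 were higher in the knockout. These points share the same libraries, and the part of base composition was not tested. On the opposite strand another annotated gene overlaps exons of 5 of the 10 called genes, and of 22 of all 68 channel genes. The overlap covers 31.1% of exon bases in Kcnj3 and 8.01% in Kcnk1, and less in Kcnh7 and Kcnh3. The strand setting of the counting is not given in the sources used here, so that reads of such partners cannot be told apart.

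In footprints Kcna2 was the 1 channel gene called (1.47% of the set), against 0.99% of all genes (0.578% higher). Kcna2 footprints were 2799 and 2565 RPKM in the knockout, against 1825 and 1556 RPKM in the wild type. The knockout libraries were again both above the wild-type libraries, and the log2 fold change was 0.67 (SE 0.12, limma adjusted p = 0.0305). Without knockout 1 the limma adjusted p was 0.064, and without wild type 3 it was 0.292. With limma-voom Kcna2 was likewise the 1 channel gene called (limma-voom adjusted p = 0.0101), against 1.64% of all genes. At an unadjusted p under 0.05 there were 16 channel genes (23.5%), against 10.1% of all genes. The groups did not overlap for 15 channel genes (22.1%) with the knockout higher, against 17% of all genes, and for 19 (27.9%) with the knockout lower, against 22.5% of all genes.

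The other genes called in total RNA did not pass the threshold in footprints. Kcnk1 footprints were 136 and 148 RPKM in the knockout, against 108 and 106 RPKM in the wild type (log2 fold change 0.40, limma adjusted p = 0.163). Kcnc4 footprints were 111 and 132 RPKM in the knockout, against 80.1 and 88.5 RPKM in the wild type (log2 fold change 0.52, limma adjusted p = 0.266). In both genes the groups were apart without passing the threshold. Kcnc1 footprints were 94.2 and 109 RPKM in the knockout, against 92.9 and 109.5 RPKM in the wild type (log2 fold change 0.01, limma adjusted p = 0.992). For Kcnc1 the 2 animals of each genotype differed more from each other than the genotypes did. Knockout 1 minus knockout 3 footprints had a Spearman rho of -0.38 with GC content over all genes and -0.52 over the channel genes. For knockout minus wild-type footprints the rho was 0.09 over all genes and 0.32 over the channel genes. Kcnj3 footprints were 1062 and 1039 RPKM in the knockout, against 1125 and 1385 RPKM in the wild type (log2 fold change -0.25, limma adjusted p = 0.587).

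Several large footprint differences came with few reads and did not pass the threshold. Kcnd1, which encodes Kv4.1, had 5.20 and 6.56 RPKM of footprints in the knockout, against 13.8 and 15.0 RPKM in the wild type (log2 fold change -1.30, limma adjusted p = 0.206). Its groups were apart on 107 and 100 reads in the knockout, against 263 and 208 reads in the wild type. Kcnip2, which encodes the KChIP2 subunit of Kv4 channels, had 0.746 and 0.459 RPKM in the knockout, against 1.83 and 1.34 RPKM in the wild type (log2 fold change -1.42, limma adjusted p = 0.235). Kcnh8, an ELK gene, had 13 and 4 footprint reads in the knockout, against 74 and 41 in the wild type (log2 fold change -3.06, limma adjusted p = 0.218). In all 3 genes every knockout value lay below every wild-type value. Kcns1 and Kcnmb2 were also lower, with log2 fold changes of -2.04 and -1.78. In the other direction Kcng2 had 2.73 and 4.17 RPKM in the knockout, against 1.49 and 1.11 RPKM in the wild type. Its log2 fold change was 1.39 (limma adjusted p = 0.453), and that of Kcnv2 was 1.16 (limma adjusted p = 0.788).

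For translational efficiency the model asked whether the genotype difference in footprints departs from that in total RNA. By limma and by limma-voom 0 of the 68 channel genes passed. Over all genes 1 was called, or 0.0075%. At an unadjusted p under 0.05 there were 3 channel genes (4.41%), all lower in the knockout, against 3.98% of all genes. Kcnd1 had footprint over total RNA ratios of 0.487 and 0.835 in the knockout, against 1.44 and 1.78 in the wild type (log2 difference -1.33, unadjusted p = 0.00824 by limma, adjusted p = 0.997). Kcnh3 had ratios of 0.140 and 0.0924 in the knockout, against 0.268 and 0.474 in the wild type (log2 difference -1.65, unadjusted p = 0.0388 by limma, adjusted p = 0.997). In both the groups were apart. Across animals the ratios did not overlap for 7 channel genes (10.3%) with the knockout higher, against 14.4% of all genes, and for 15 (22.1%) with the knockout lower, against 17.5% of all genes. The median log2 difference was -0.10 over the channel genes and -0.02 over all genes. The median ratio of the channel genes was 0.548 and 0.624 in the knockout, against 0.568 and 0.701 in the wild type, so that the ranges of the genotypes overlapped.

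The level of the ratio, as distinct from its genotype difference, ranged widely among the subfamilies. Over the 4 animals the median ratio was 0.617 for the channel genes, against 0.940 for all genes tested. Of the 68 genes 30 lay in the lowest 25% of all genes and 3 in the highest 25%. Kcnk10, which encodes the K2P channel TREK2, had the lowest mean ratio, with 0.0716 and 0.0482 in the knockout, against 0.0708 and 0.0686 in the wild type. Kcnq3, which encodes Kv7.3, had 0.133 and 0.130 in the knockout, against 0.157 and 0.187 in the wild type. Among the subfamily medians below 0.5 were 0.393 for KCNE (Kcne1l alone), 0.435 for Kv7, 0.439 for SK and 0.494 for Kv3. The lowest was that of Kv2 with 0.252.

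The highest subfamily medians were those of the cytoplasmic auxiliary subunits, 1.64 for KChIP and 1.36 for Kv beta. Mean ratios of the 4 KChIP genes ranged from 0.528 for Kcnip2, above only 22.2% of all genes, to 2.78 for Kcnip1. Kcnip1, which encodes KChIP1, had ratios of 3.18 and 2.18 in the knockout, against 3.01 and 2.87 in the wild type, above 95.7% of all genes. Kcnip4, which encodes KChIP4 of granule neurons, had 2.24 and 1.94 in the knockout, against 1.98 and 2.29 in the wild type. The 3 Kv beta genes had mean ratios between 1.07 and 1.40. Which part of a transcript was counted is not given in the sources used here. Genes with a larger coding share of their annotated exons tended to have higher ratios. The Spearman rho was 0.24 over the 68 genes and 0.16 over all genes. With exon length the rho was -0.23 over the 68 genes and -0.27 over all genes. Kcna2 had a low ratio in every animal, 0.267 and 0.259 in the knockout, against 0.309 and 0.266 in the wild type, with overlapping groups (log2 difference -0.12, SE 0.14).

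**Figure D4:**
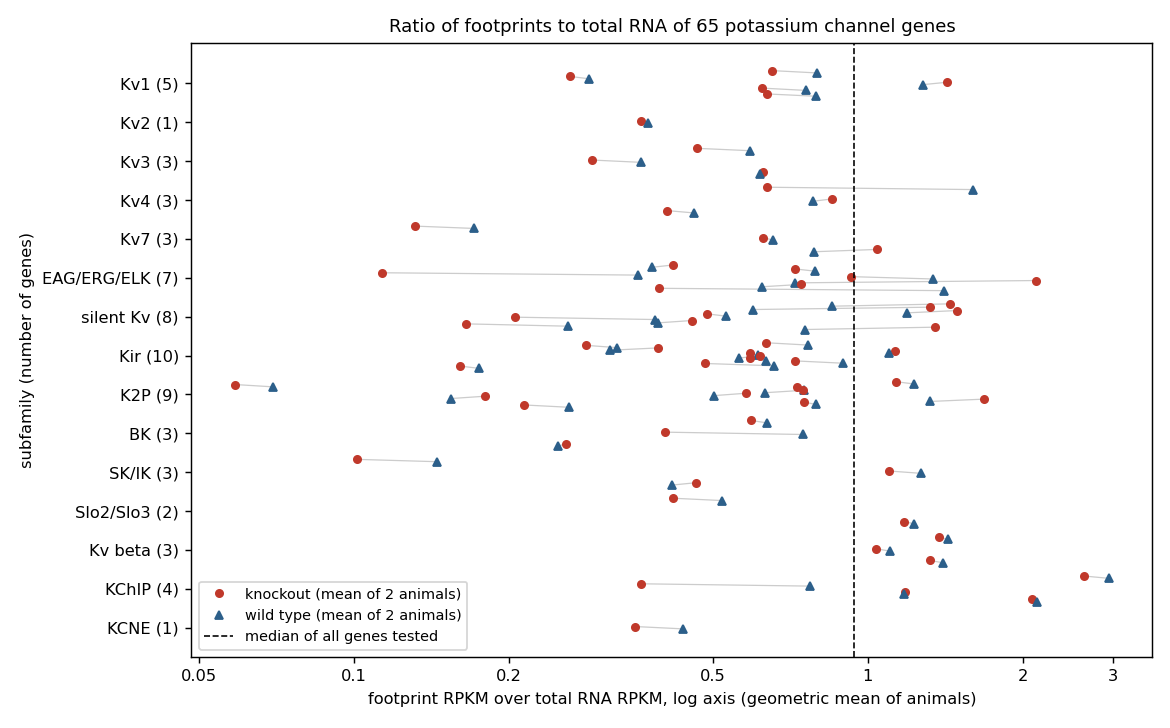
Ratio of footprint RPKM to total RNA RPKM (x axis, log scale) for 65 of the 68 potassium channel genes by subfamily, as the geometric mean of 2 knockout animals and of 2 wild-type animals, joined by a line. The dashed line is the median of all genes tested, 0.940, and KChIP and Kv beta genes lie mostly to its right while Kv3 and Kv7 genes lie mostly to its left.

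Genes of channel complexes and of potassium transport whose symbols do not start with Kcn were read beside the set. Of 13 tested partners of channel complexes, such as Dpp6 and Dpp10 of Kv4 channels and Lgi1, Adam22 and Cntnap2 of Kv1 channels, 0 were called in total RNA, footprints or efficiency by limma or limma-voom. At an unadjusted p under 0.05 in total RNA Amigo1, a Kv2 partner, had a log2 fold change of 0.23, Dpp10 one of -0.18 and Cntnap2 one of -0.22. Of 14 genes of sodium-potassium pumps, cation-chloride cotransporters and HCN pacemaker channels, 3 were higher in total RNA and 0 were called in footprints by limma. Atp1b2, the glial pump beta subunit gene, had 176 and 128 RPKM in the knockout, against 96.6 and 70.7 RPKM in the wild type (log2 fold change 0.86, limma adjusted p = 0.000857). Its groups did not overlap. With limma-voom Atp1b2 was also called in footprints, where its log2 fold change in the limma fit was 0.50.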

How the data were processed

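Per the labels, total RNA and ribosome footprints of mouse cerebellum were sequenced, with 2 animals per genotype in both kinds of library. The submitters' processing notes name Bowtie, STAR, Cufflinks and mm10; versions, annotation, strand setting and counting rule are not given in the sources used here. The authors deposited RPKM per library (in name, reads scaled by gene length and library size), the ratio of footprint to total RNA RPKM per animal (TE per the file headers), and a mean read count per gene.

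From these values, log2 RPKM without a pseudocount was fitted with limma 3.58.1 in R 4.3.3 over 13331 genes with a mean read count of 20 or more, with a variance trend along that count and Benjamini-Hochberg adjustment at 0.05. Efficiency was the interaction term over 8 libraries. The mean read count was taken as a geometric mean. With it 100% of 1616 checked values came out as whole reads within 0.1 reads, against 21.7% with an arithmetic mean at the same library depths. Those depths had been chosen to give whole reads, on genes that overlap the checked ones. The checked genes had a mean read count under 20, so none of the channel genes tested was among them. Limma-voom with TMM scaling on the recovered reads was an alternative. Further alternatives were other filters, pseudocounts, scalings, variance trends, a single fit of all libraries and leaving out each animal. Tables were built with Python 3.11.15, and the fit was tested on simulated data. Replicates of a group differed by more than sampling noise, and the smallest exact permutation p for 2 against 2 is 0.333, so single values carry no p of their own. Footprint and total RNA libraries with the same genotype and number were taken as 1 animal, since the deposited ratios pair them. Over genes, the animal difference in footprints and in total RNA had a Pearson r of 0.01 in knockouts and 0.19 in wild types.

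Named genes are those called in limma, those called by limma-voom, the gene with the largest total RNA change and the one with most reads in each subfamily, and channels with a known role in the cerebellum. Genes named beyond this rule, among them Kcna4, Kcnc2, Kcnd1, Kcng2, Kcnh8, Kcnip1, Kcnk10 and Kcnv2, were chosen after their values were seen. Members, gene lists and tests were chosen with earlier results of these data known. Some genes are not reported here by name and are left out of the figures; counts over the set include them. Sequences are from RefSeq (GRCm38).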

Additional observations from a re-analysis of the deposited data

How the results depend on the processing

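With 2 animals per genotype, counts of calls moved with the variance model and with single animals. Of the 68 channel genes 10 were called in total RNA, against 6 with no filter, 6 with log2(RPKM + 1) and a mean RPKM of at least 1, 3 without a variance trend, 2 with all libraries in 1 fit (Kcna2 and Kcnk1), and 3 to 17 when 1 animal was left out, with 3 without knockout 1 and 17 without wild type 3. For all genes the total RNA count of 1369 was 519 with log2(RPKM + 1) and that filter, 871 with a pseudocount of 1, 215 without a trend, 643 with a trend along RPKM, 372 with all libraries in 1 fit and 628 to 2066 with 1 animal left out. In footprints the 1 channel gene became 0 with log2(RPKM + 1) and that filter, with a pseudocount of 1, without a trend and with a trend along RPKM, 4 with all libraries in 1 fit (Kcna2 and Kcnk1 higher, Kcnd1 and Kcnh8 lower), and 0 to 1 with 1 animal left out. The 132 footprint calls over all genes were 29, 56, 1 and 31 in those first 4 settings, 219 by limma-voom, 435 with all libraries in 1 fit and 72 to 124 with 1 animal left out. The 1 efficiency call over all genes became 2 with log2(RPKM + 1) and that filter, 0 without a trend, 2 with a trend along RPKM and 0 to 3 with 1 animal left out, and no channel gene was called for efficiency in these settings. With a member minimum of 100, called EAG, ERG and ELK genes were 1 and called silent Kv genes 0, since fewer genes met it. Median centring split total RNA calls into 781 higher and 492 lower, and quantile normalization into 609 and 438, beside 771 and 598. Outside the filter change, which tests other genes, the cause of these moves was not tested. No channel gene changed the sign of a called difference under these alternatives.

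Knockout and wild type were not paired within total RNA or within footprints, since they are different animals and their numbers are only names. For efficiency, where the animal can be a replicate block, 0 channel genes and 1 gene over all were called. Fits without knockout 2 or wild type 1 were not run, since neither entered. Where 1 animal was left out, the lone library is assumed to vary like the other group. Depth limits Kcnh3, Kcnf1, Kcnh6 and Kcnh8, which rest on few reads per library.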
